A study of Mus musculus with 4 samples.

Results

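The 10 genes described here encode 7 Toll-like receptors (Tlr1, Tlr2, Tlr4, Tlr6, Tlr7, Tlr9 and Tlr13), the lipopolysaccharide co-receptors Cd14 and Ly96, and the adaptor Myd88. They were chosen by name, as the rows of these genes among the 28692 genes of the count table, and all 10 were present. They were followed across 4548 cell barcodes from the colon lamina propria, sorted as CD11b+ cells that were also positive for Ly6C or CD64. The barcodes came from 4 male C57/Bl6N mice kept under SPF (specific pathogen free) conditions. DEP mice 11 and 13 were gavaged with 12 µg of diesel exhaust particles (DEP) in 200 µL PBS, and PBS mice 2 and 3 with PBS alone, on 5 days of each week over approx. 6 months. No genetic change was named for any mouse, their age was not given, and each mouse was an independent sample on a well of its own, so the mouse is the replicate. Values of single mice are given throughout in the order DEP 11, DEP 13, PBS 2, PBS 3.

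Toll-like receptors recognise conserved microbial molecules. At the cell surface, Tlr2 pairs with Tlr1 or Tlr6 to bind bacterial lipopeptides, and Tlr4 with Ly96 (also called MD-2) and Cd14 binds lipopolysaccharide. Tlr7, Tlr9 and Tlr13 sit in endosomes and bind single-stranded RNA, CpG DNA and bacterial ribosomal RNA. All of these receptors can signal through the adaptor Myd88 to NF-kappa-B. In the colon, Ly6C high monocytes enter the lamina propria continuously and mature into C1q-rich resident macrophages, which take up bacteria and are known for weak inflammatory answers to them. The question put to the data was therefore whether the receptor genes differed between barcodes with Ly6c2 and barcodes with C1qa, and between DEP exposed and PBS mice.

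Barcodes with at least 1000 UMIs (unique molecular identifiers, counts of captured transcripts) numbered 4771, and 223 that carried several T, B or plasma cell markers were set aside. The remaining 631 to 1495 barcodes per mouse had median depths of 5254.5 to 7093 UMIs. They were divided into 4 strata at 1.77 Ly6c2 UMIs and 20.3 C1qa UMIs per 10000 UMIs. These were Ly6c2+ C1qa- (903 barcodes), Ly6c2+ C1qa+ (335, of which DEP 13 held only 17), Ly6c2- C1qa+ (2421) and Ly6c2- C1qa- (889). Near a cut (within 25%) lay 8.27% of the barcodes for Ly6c2 and 8.33% for C1qa. The Ly6c2 cut was low enough that 1 UMI passed it in a shallow barcode and not in a deep one. Ly6c2 UMIs were present in 21.1% of Ly6c2- C1qa+ barcodes. Among C1qa+ barcodes, those with Ly6c2 UMIs up to the cut had a median depth of 9167 UMIs. Those over the cut and up to their median Ly6c2 level had 5577.5. Depth thus entered the division by Ly6c2. The summed level of 8 monocyte markers was 7400 ± 627 CPM (UMIs per 1000000 UMIs of the barcodes summed, mean ± SD, n = 4 mice) in Ly6c2+ C1qa- and 804 ± 128 in Ly6c2- C1qa+. The 10 macrophage markers summed to 15772 ± 2840 in Ly6c2+ C1qa- and 56101 ± 4838 in Ly6c2- C1qa+. The labelled cell types were thus present, although Ly6c2 and C1qa are themselves among these markers. Apoe gave most of the macrophage sum in both strata (12350 and 36004 CPM). Every other marker of that list was also higher in Ly6c2- C1qa+. The 6 neutrophil markers summed to 60.9 ± 10.1 and 31.9 ± 4.05 CPM in the same strata, with 3 and 1 of them at 0. Nearly all of it was Csf3r, with 251 and 500 UMIs, while S100a8 had 8 and 2, S100a9 had 0 in both, and Mmp9 went the other way with 1 and 71. In Ly6c2- C1qa- the monocyte markers summed to 3864 ± 445 CPM and the macrophage markers to 17780 ± 3856. Ccr2 there was at 813 CPM, beside 809 in Ly6c2+ C1qa-, and the other monocyte markers were lower there. The 6 dendritic cell markers summed to 59.8 ± 15.1 CPM in Ly6c2+ C1qa- and 22.0 ± 8.72 in Ly6c2- C1qa+. In Ly6c2+ C1qa+ they summed to 111 ± 155, from 12.8 to 342 between mice. Their sum was 164 ± 63.5 in Ly6c2- C1qa-, where Cd209a gave 563 of the UMIs and Siglech, at 4 UMIs, was lower than in Ly6c2- C1qa+ (118). The 6 epithelial markers summed to 5.08 ± 3.35 and 8.36 ± 3.20 CPM in the 2 main strata and to 46.5 ± 47.3 in Ly6c2- C1qa-, where they ranged from 3.97 to 92.1 between mice. Their part in the results was not tested. A difference between DEP and PBS mice in the share of barcodes in each stratum was not detectable (exact two-sided permutation p = 0.667 to 1, with 0.33 the smallest p that 2 against 2 mice allow).

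Of the 10 genes, 8 passed the filter on low values and were tested between the strata. Tlr2 and Myd88 were lower and Tlr1 was higher in Ly6c2- C1qa+ than in Ly6c2+ C1qa- barcodes, while Tlr4, Tlr7, Tlr13, Cd14 and Ly96 did not pass the test. That is 1 gene higher and 2 lower of 8, where 18.9% of the 6536 genes tested were higher and 20.7% lower, 39.6% in all. The share of the members called was therefore close to that of all genes. RefSeq upstream sequence (GRCm38.p6) was available for 6 of the 10 genes, and that of a gene that rose and a gene that fell is shown, 150 bases ending at the annotated start, with motif matches in capitals. The Tlr1 window lies at chr5:64933559-64933708 and that of Myd88 at chr9:119340019-119340168, both on the minus strand and printed 5′ to 3′. The first borders the outermost GENCODE M21 start of its gene, and the second lies inside the outermost bounds of its gene.
Tlr1: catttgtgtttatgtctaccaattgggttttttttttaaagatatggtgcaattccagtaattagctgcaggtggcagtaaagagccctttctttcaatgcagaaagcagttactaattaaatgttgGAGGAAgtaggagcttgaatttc
Myd88: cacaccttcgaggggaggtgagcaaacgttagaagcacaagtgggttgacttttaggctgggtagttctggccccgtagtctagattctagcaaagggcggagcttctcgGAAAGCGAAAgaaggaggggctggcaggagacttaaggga
The Tlr1 window holds GAGGAA, the core bound by PU.1 and other ETS factors of myeloid cells, 23 bases before the start. The Myd88 window holds a match to the interferon-stimulated response element, searched as GAAA repeated after any 2 bases, 40 bases before the start. On either strand of the 250 upstream bases, 23.3% of 32851 promoters hold GAGGAA, as do Tlr1, Tlr9 and Tlr13 in at least 1 of their RefSeq promoters. The response element is found in 2.98% of promoters, and Myd88 and Tlr6 are among them. The kappa-B pattern, GGG and TTTCC around any 2 bases (1.41% of promoters), had no match in the windows of the 6 genes. The AP-1 pattern TGAGTCA (4.46%) matched in Tlr9. Matches to different motifs did not overlap in these genes. The matches describe letters in a window, not sites in use. Tlr4, Tlr7, Cd14 and Ly96 were not matched.

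Tlr2 (chr3:83836272-83841767, mm10) encodes the lipopeptide receptor shared by both heterodimers. In Ly6c2+ C1qa- barcodes the 4 mice were at 165, 149, 133 and 93.1 CPM. In Ly6c2- C1qa+ barcodes they were at 75.7, 55.2, 92.1 and 74.6 CPM. Every mouse was lower in the C1qa+ stratum, and the strata did not overlap, with PBS 3 of the first (93.1) just above PBS 2 of the second (92.1). The log2 fold change was -0.75 with a standard error (SE) of 0.12 (adjusted p = 1.75e-06, edgeR quasi-likelihood test with mouse as a block and Benjamini-Hochberg adjustment over all genes tested). In Ly6c2- C1qa- barcodes Tlr2 averaged 128 ± 21.6, higher in 4 of 4 mice than in Ly6c2- C1qa+ (log2 fold change 0.68, SE 0.12, adjusted p = 2.09e-05, with 31.5% of all genes called). Against Ly6c2+ C1qa- it did not pass the test (-0.07, SE 0.13, adjusted p = 0.856, with 6.59% of genes called). Ly6c2+ C1qa+ did not pass it against Ly6c2+ C1qa- either (-0.22, SE 0.15, adjusted p = 0.375, with 21.8% of genes called). Within the C1qa+ barcodes, it averaged 111 ± 23.8 over the Ly6c2 cut and 74.4 ± 15.1 up to it. The log2 difference of -0.54 (SE 0.15) missed the threshold (adjusted p = 0.0607 in edgeR, with 1.39% of genes called).

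Tlr1 (chr5:64924679-64933563), the partner of Tlr2 for triacylated lipopeptides, went the other way. It was at 15.0, 9.29, 16.7 and 16.7 CPM in Ly6c2+ C1qa- barcodes. In Ly6c2- C1qa+ barcodes the 4 mice were at 25.5, 28.2, 36.7 and 28.3. The 4 values of each stratum did not overlap, and every mouse was higher in the C1qa+ stratum (log2 fold change 1.0, SE 0.21, adjusted p = 2.60e-04). The Ly6c2+ C1qa+ stratum was also above Ly6c2+ C1qa- (1.17, SE 0.30, adjusted p = 0.00337, with 21.8% of genes called). Its mean of 43.2 ± 25.2 was raised by DEP 13, whose value of 79.9 rested on 7 UMIs. Tlr6 (chr5:64952031-64960097), the partner of Tlr2 for diacylated lipopeptides, had 171 UMIs in all and fell below the filter. It averaged 4.57 ± 0.863 in Ly6c2+ C1qa- and 6.11 ± 1.44 in Ly6c2- C1qa+ barcodes, and was higher in the latter in 4 of 4 mice. Without the filter its log2 fold change was 0.55 (SE 0.35, adjusted p = 0.343).

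None of the lipopolysaccharide receptor genes passed the test between Ly6c2- C1qa+ and Ly6c2+ C1qa-. Tlr4 (chr4:66827584-66930284), the signalling subunit, averaged 10.8 ± 5.91 CPM in Ly6c2+ C1qa- and 12.8 ± 1.2 in Ly6c2- C1qa+ (log2 fold change 0.13, SE 0.24, adjusted p = 0.701, and -0.043 to 0.42 over 17 alternatives). Ly96 (chr1:16688051-16709611), which holds the lipid part of lipopolysaccharide, was at 41.5 ± 5.82 and 50.6 ± 2.25, higher in the C1qa+ stratum in 4 of 4 mice (0.28, SE 0.12, adjusted p = 0.0709). Over 17 alternatives it ran from -0.033, with strata set on thinned counts at their own cuts, to 0.36, passing the threshold in 2. It was lower in Ly6c2- C1qa- than in Ly6c2- C1qa+ barcodes (-0.32, SE 0.12, adjusted p = 0.0475). Cd14 (chromosome 18), which hands lipopolysaccharide to Tlr4 and Ly96, had the most UMIs of the 10 genes, 17534. It was at 540, 492, 812 and 615 CPM in Ly6c2+ C1qa- barcodes. The values in Ly6c2- C1qa+ were 579, 452, 663 and 575. The values of the strata overlapped, with a log2 fold change of -0.07 (SE 0.07, adjusted p = 0.471). No pair of strata differed in Cd14 or Tlr4 by the test, and for Cd14 the fold changes of the 6 pairs lay between -0.11 and 0.05.

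Among the endosomal receptors, Tlr13 (chrX:106143204-106160493), the sensor of bacterial ribosomal RNA, averaged 23.9 ± 7.22 in Ly6c2+ C1qa- and 28.4 ± 6.49 in Ly6c2- C1qa+ barcodes. It was higher in the latter in 4 of 4 mice, but the difference missed the threshold (0.31, SE 0.16, adjusted p = 0.111), and ran from 0.098 to 0.60 over 17 alternatives. Tlr13 was lower in Ly6c2- C1qa- than in Ly6c2- C1qa+ barcodes (-0.52, SE 0.16, adjusted p = 0.0132). Tlr7 (chrX:167304929-167330558), a receptor for single-stranded RNA, was at 22.3 ± 4.30 and 17.5 ± 1.66, lower in the C1qa+ stratum in 4 of 4 mice (-0.28, SE 0.18, adjusted p = 0.221), with -0.61 to -0.18 over the alternatives. Among the C1qa- barcodes over the Ly6c2 cut, it averaged 15.8 ± 5.09 in those below their median Ly6c2 level and 29.0 ± 7.88 in those above it, a difference singled out after its values were seen and not tested. Tlr9 (chr9:106222598-106226883), the receptor for CpG DNA, was barely captured, with 31 UMIs in 4548 barcodes. Of these, 23 were in the Ly6c2- C1qa+ barcodes (1.31 ± 0.598 CPM) and 2 were in Ly6c2+ C1qa- barcodes, too few for a fold change.

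Myd88 (chr9:119335934-119341411), the adaptor used by all of these receptors, fell with Tlr2. It was at 77.7, 79.9, 93.7 and 63.6 CPM in Ly6c2+ C1qa- barcodes. In Ly6c2- C1qa+ barcodes it was at 42.2, 54.8, 68.7 and 44.9. It was lower in 4 of 4 mice, and the strata overlapped only between PBS 3 of the first (63.6) and PBS 2 of the second (68.7). The log2 fold change was -0.55 (SE 0.11, adjusted p = 1.12e-04). The Ly6c2+ C1qa+ stratum was lower than Ly6c2+ C1qa- too (-0.48, SE 0.16, adjusted p = 0.0251), and Ly6c2- C1qa- was higher than Ly6c2- C1qa+ (0.39, SE 0.11, adjusted p = 0.00690). The call between the main strata was lost when barcodes were assigned after thinning each to 1000 UMIs (-0.36, adjusted p = 0.226, the highest of 17 alternatives, whose lowest was 9.82e-05). That assignment used its own cuts, 0.00862 Ly6c2 and 0.0102 C1qa UMIs per 10000. Any UMI among the 1000 thus made a barcode positive for that gene. It is therefore another division of the barcodes, and not the main cuts at equal depth.

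**Figure D1:**
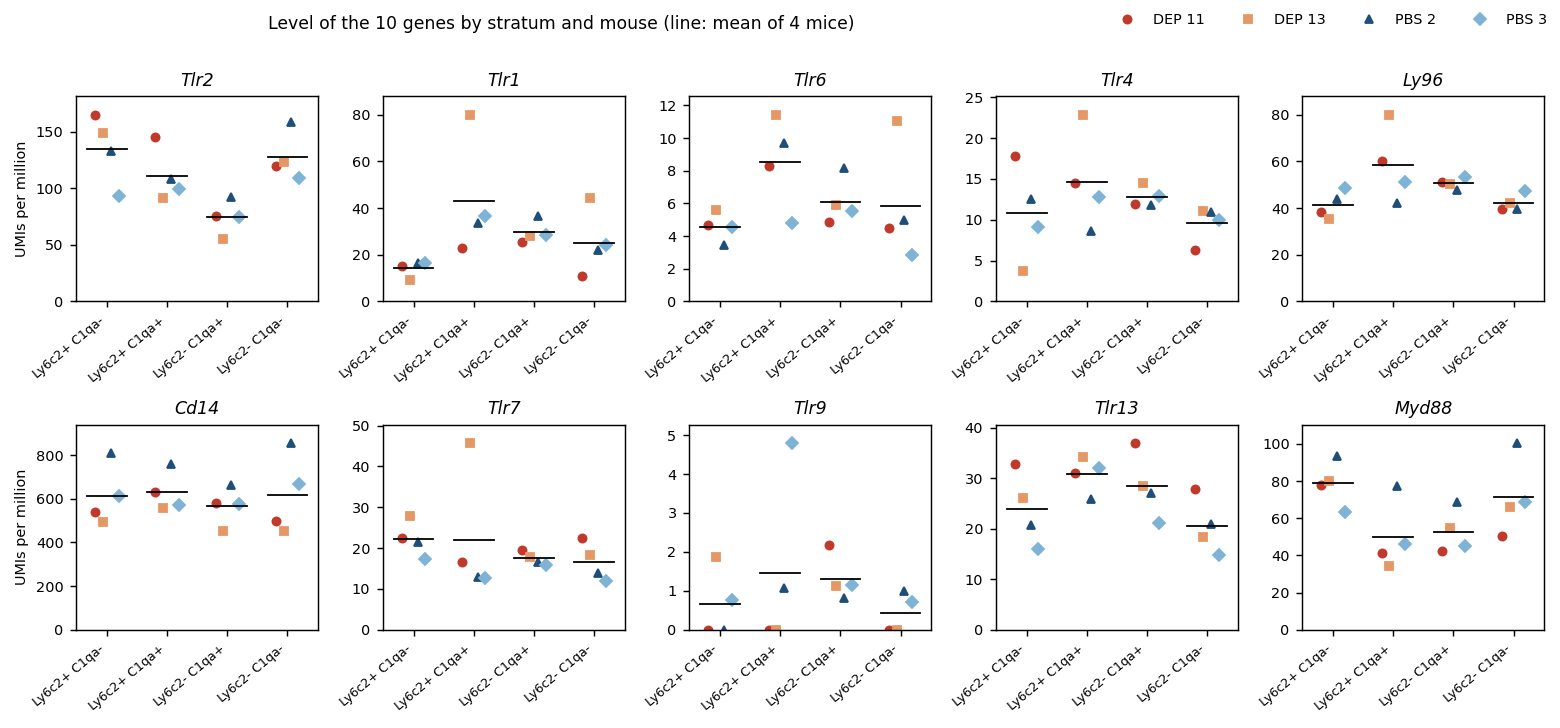
Level of each gene in CPM (vertical axis, from 0, own scale per panel) in the 4 strata (horizontal axis), with 1 point per mouse and the mean of the 4 mice as a line. Tlr2 and Myd88 have their lowest or second lowest means in Ly6c2- C1qa+ (74.4 and 52.7), Tlr1 has its lowest in Ly6c2+ C1qa- (14.4), and Cd14 stays between means of 567 and 630.

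Along the C1qa level alone, without the strata, Tlr2, Myd88 and Tlr1 kept the directions they had between the strata, and Tlr7 did not. With all 4548 barcodes divided into 5 equal groups by C1qa level, Tlr2 averaged 133 ± 15.2, 128 ± 23.0, 92.7 ± 29.5, 73.1 ± 17.3 and 74.0 ± 16.5 CPM from the lowest to the highest. The change lay between the second and the fourth group, where C1qa passed from 8.95 to 65.1 per 10000. Myd88 went from 69.6 ± 6.90 in the lowest to 45.9 ± 11.9 in the highest group. Tlr1 went from 18.4 ± 6.42 to 31.2 ± 6.99, and had reached 29.9 ± 7.14 in the third group. Cd14 was at 616 ± 206 and 551 ± 96.2 at the ends, a difference smaller than the spread between mice. Tlr7 was at 18.0 ± 4.10, 21.8 ± 6.94, 14.8 ± 2.58, 15.1 ± 1.15 and 23.3 ± 6.64, and its highest group was above its lowest in 3 of 4 mice. These values come from the same barcodes as the strata and are a description.

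**Figure D2:**
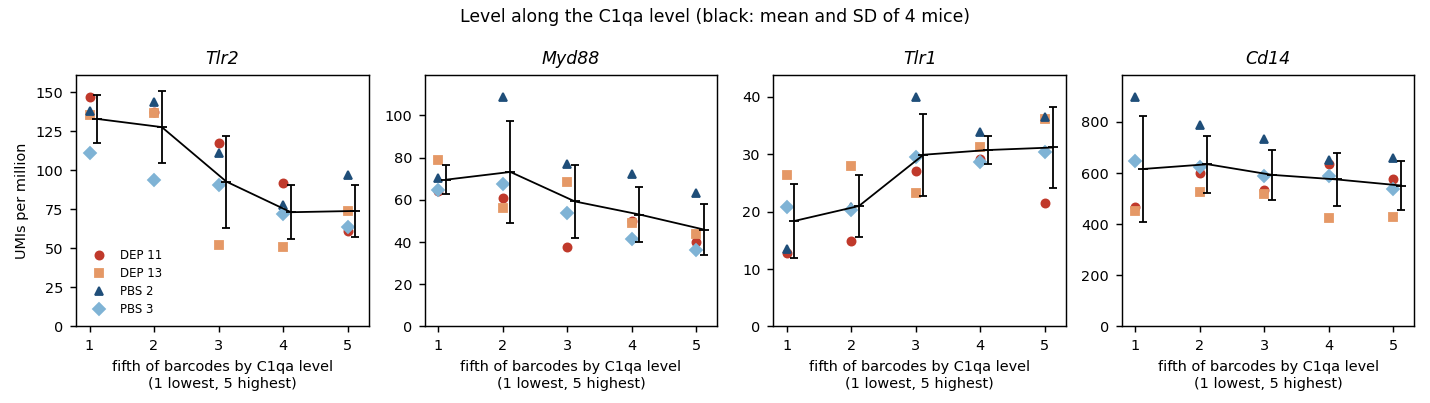
Level of Tlr2, Myd88, Tlr1 and Cd14 in CPM (vertical axes, from 0) over 5 equal groups of barcodes by C1qa level (horizontal axes, 1 lowest). Coloured points are mice and black marks with bars are mean and SD of the 4 mice, with Tlr2 passing from 133 to 74.0 and Tlr1 from 18.4 to 31.2.

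A level in CPM and a share of barcodes with a UMI need not rank the strata alike, since Ly6c2- C1qa+ barcodes were deeper (median 7162 UMIs) than Ly6c2+ C1qa- barcodes (4859). Tlr2 was found in 37.6% ± 7.70 (SD, n = 4 mice) of Ly6c2+ C1qa- and 35.1% ± 7.64 of Ly6c2- C1qa+ barcodes at full depth, but in 12.7% ± 2.38 and 7.42% ± 2.56 once each barcode was thinned to 1000 UMIs. Myd88 was found in 29.5% ± 6.52 and 29.1% ± 7.34, and in 5.99% ± 0.543 and 4.2% ± 1.32 after thinning. Tlr1 was found in 6.44% ± 1.86 and 18.8% ± 5.21, and in 1.67% ± 0.309 and 2.77% ± 0.836 after thinning. At equal depth the shares thus had the order of the levels. Any of the 7 receptors was detected in 56.4% ± 7.76 of Ly6c2+ C1qa- and 63.9% ± 6.73 of Ly6c2- C1qa+ barcodes at full depth, and in 19.0% ± 2.61 and 15.3% ± 2.52 after thinning, so the order depended on depth. Tlr4 and Ly96 were found together in 0.997% of Ly6c2+ C1qa- and 2.93% of Ly6c2- C1qa+ barcodes at full depth, and after thinning in only 3 of all 4548 barcodes.

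Part of these UMIs can be free RNA, which enters every droplet. Jchain, a plasma cell marker, was found in 85.4 to 91.7% of the barcodes of each myeloid stratum, at 700 to 901 CPM. T cell barcodes were taken as a comparison. Many cell types, T cells included, use Myd88, and how much Tlr2 or Tlr1 these T cells carried themselves is not known. In the 55 barcodes with T cell markers (median 4004 UMIs), 27.3% held a Tlr2 UMI (exact Clopper-Pearson 95% interval 16.1 to 41.0%, counting error only), 21.8% a Myd88 UMI (11.8 to 35.0%) and 5.45% a Tlr1 UMI (1.14 to 15.1%) at full depth. After thinning each barcode to 1000 UMIs, 3.64% of T cell barcodes held Tlr2, against 12.2% and 7.72% in Ly6c2+ C1qa- and Ly6c2- C1qa+ (barcodes of all mice pooled). Myd88 was then in 0 of 55, which allows a share of up to 5.45% by a limit of 3 counts, against 6.09% and 4.17%. Tlr1 was then in 1.39% ± 2.78 of T cell barcodes (mean ± SD, n = 4 mice), from 0 to 5.56% in single mice. That range covers the 1.67% ± 0.309 and 2.77% ± 0.836 of the 2 strata. The T cell barcodes also held Cd14 at 425 ± 201 CPM and the macrophage gene C1qa at 1609 ± 917 CPM (n = 4 mice), and whether free RNA or macrophages caught with a T cell gave these UMIs was not tested. The 86 barcodes with plasma cell markers had Tlr2 at 39.7 ± 5.05 and Myd88 at 24.6 ± 15.4 CPM (n = 4 mice), both below the level in each myeloid stratum. In barcodes under 500 UMIs, Tlr2 was at 157 ± 47.9, Myd88 at 46.7 ± 10.5, Tlr1 at 19.8 ± 9.69, Ly96 at 14.7 ± 4.44 and Cd14 at 461 ± 157. Tlr2 there lay above every stratum mean, while Myd88, Ly96 and Cd14 lay below theirs. Tlr1 lay above its mean in Ly6c2+ C1qa- (14.4) and below its means in the other strata. The part of free RNA in the differences between strata was not tested. In sums over barcodes, fewer expressing cells and less RNA per cell cannot be told apart.

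Of 52 other genes of the pathway, 35 passed the filter, and between the same strata 8 were higher and 8 lower in Ly6c2- C1qa+, not far from the 18.9% higher and 20.7% lower among all genes tested. The calls are therefore given gene by gene, and say nothing particular to the pathway. Their median log2 fold change was -0.11, beside -0.0012 over all genes tested. Receptors outside the 10 genes were split. Tlr12, which binds profilin of protozoa, was at 8.42, 5.57, 11.1 and 7.57 CPM in Ly6c2+ C1qa- barcodes. In Ly6c2- C1qa+ it was at 95.3, 68.9, 71.7 and 69.8. That is a log2 fold change of 3.16 (SE 0.18, adjusted p = 2.14e-16), with no overlap between strata. Cd180, a receptor relative that forms a complex with Ly86, fell by 0.61 on the log2 scale (SE 0.19, adjusted p = 0.00947).

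Of 7 accessory and trafficking genes tested, 5 were higher and 0 lower, beside 18.9% and 20.7% of all genes, and the group as such was not tested. Unc93b1, which carries the endosomal receptors out of the endoplasmic reticulum, rose by 0.45 (SE 0.07, adjusted p = 1.22e-06). The chaperone Cnpy3 rose by 0.24 (SE 0.09, adjusted p = 0.0431), and the peptide transporter Slc15a3 rose by 0.62 (SE 0.10, adjusted p = 1.79e-06). Cd36, a scavenger receptor that delivers lipids to Tlr2 dimers, rose by 1.60 (SE 0.26, adjusted p = 3.34e-06), and Ly86 rose by 0.22 (SE 0.08, adjusted p = 0.0309).

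Of 2 adaptors tested 1 was lower, of 9 kinases and ligases 1 was higher and 1 lower, and of 7 transcription factors 2 were lower, beside 39.6% of all genes called in either direction. Ticam2, the bridge between Tlr4 and the Ticam1 branch, fell by 0.95 (SE 0.22, adjusted p = 5.29e-04), and Ticam1 was at 0.02 (SE 0.30, adjusted p = 0.963). Ikbkb, the kinase that releases NF-kappa-B from its inhibitor, fell by 0.80 (SE 0.10, adjusted p = 1.52e-08). The ligase Peli1 rose by 0.72 (SE 0.12, adjusted p = 7.53e-06), and the other 7 kinases and ligases tested did not pass. Irf7, the interferon regulatory factor downstream of Tlr7 and Tlr9, was at 136, 113, 162 and 90.8 CPM in Ly6c2+ C1qa- and at 22.3, 12.96, 31.5 and 19.4 in Ly6c2- C1qa+. It fell by 2.45 (SE 0.13, adjusted p = 1.03e-17), and the strata did not overlap. Irf5, which acts with Myd88 in inflammatory gene induction, fell by 0.82 (SE 0.07, adjusted p = 3.19e-11), and the 5 other transcription factors tested did not pass.

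Of 8 inhibitors tested, 3 were lower and 1 was higher in Ly6c2- C1qa+, beside 20.7% and 18.9% of all genes. Irak3, a kinase relative that blocks Irak signalling, fell by 1.12 (SE 0.23, adjusted p = 1.37e-04). Nfkbia, which holds NF-kappa-B in the cytoplasm, fell by 0.39 (SE 0.07, adjusted p = 1.10e-05), and Atf3, a repressor of inflammatory genes, fell by 0.34 (SE 0.07, adjusted p = 1.43e-04). Tnfaip3, the deubiquitinase A20, rose by 0.32 (SE 0.12, adjusted p = 0.0397).

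**Figure D3:**
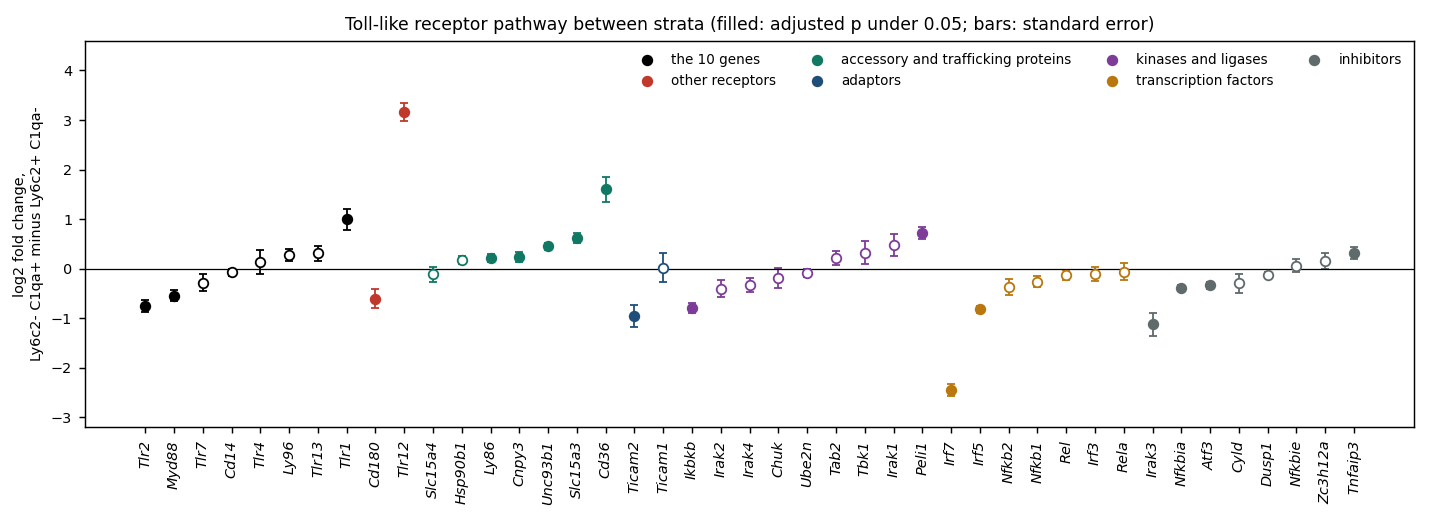
Log2 fold change of Ly6c2- C1qa+ against Ly6c2+ C1qa- (vertical axis) for the 8 tested members and 35 other tested pathway genes (horizontal axis, by role), with standard errors as bars and filled points for an adjusted p under 0.05. Tlr12 stands highest at 3.16 and Irf7 lowest at -2.45, while 3 of the 8 members are filled.

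Between DEP and PBS mice, no member passed the test. Over all myeloid barcodes, edgeR called 0 of 6538 genes (0%). Without adjustment 173 genes were under 0.05, and DESeq2 called 4. Cd14 was at 563, 460, 715 and 596 CPM, so both DEP mice were below both PBS mice. The log2 fold change was -0.36 (SE 0.16, adjusted p = 0.9998 in edgeR). Tlr13 was at 34.3, 26.9, 25.4 and 20.1 CPM, with both DEP mice higher and DEP 13 close to PBS 2 (0.44, SE 0.20, adjusted p = 0.9998 in edgeR). Tlr7 was at 20.3, 19.9, 16.7 and 15.2 CPM, again with no overlap (0.33, SE 0.19). Tlr4 was at 12.1, 12.7, 11.5 and 11.8 CPM (0.08, SE 0.21). Over 14 alternatives Tlr4 ran from 0.020 to 0.15, Tlr13 from 0.28 to 0.59 and Cd14 from -0.48 to -0.25. For Cd14, Tlr13, Tlr7 and Tlr4, 4 of 8 members, the groups did not overlap, 3 with DEP higher and 1 lower, beside 26.6% of all genes tested, 14.1% higher and 12.5% lower.

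Within the strata Cd14, Tlr13 and Tlr7 had fold changes of the same sign as over all myeloid barcodes, in barcodes of the same mice. In Ly6c2+ C1qa- barcodes edgeR called 0 of 5572 genes (0%). Without adjustment 157 genes were under 0.05, and DESeq2 called 1. Groups did not overlap for 6 of 8 members, where 29.4% of all genes did not (15.1% higher and 14.2% lower in DEP). In addition to Cd14 (-0.46, SE 0.18), Tlr13 (0.70, SE 0.35) and Tlr7 (0.33, SE 0.36), these were Ly96 (-0.31, SE 0.28), Tlr1 (-0.37, SE 0.41) and Tlr2 (0.48, SE 0.22). These fold changes depended on the settings, with Cd14 between -1.02 and -0.28, Tlr13 between 0.18 and 0.88 and Tlr1 between -1.33 and -0.018 over 16 alternatives. Tlr2 ran from -0.23 to 0.72 and Tlr7 from -0.041 to 0.54, and both turned direction with strata set on thinned counts. In Ly6c2- C1qa+ barcodes 1 of 7027 genes was called (0.0142%), and it was no member. Groups did not overlap there for Tlr13 (0.46, SE 0.22), Tlr7 (0.22, SE 0.23) and Tlr1 (-0.27, SE 0.21), 3 of 8 members beside 29.8% of all genes (14.7% higher and 15.1% lower). Cd14 there overlapped (-0.25, SE 0.17).

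Whether the difference between DEP and PBS mice depended on the stratum was tested as an interaction, and Tlr2 had the smallest p of the members. In Ly6c2+ C1qa- barcodes the DEP mice (165 and 149) were above the PBS mice (133 and 93.1). C1qa itself was lower there in both DEP mice (758 and 602 CPM) than in the PBS mice (1071 and 983). The macrophage markers, whose sum is mostly Apoe, averaged 14510 CPM in DEP and 17034 in PBS mice of that stratum. The monocyte markers averaged 7800 and 7000, and the part of these differences in the Tlr2 values was not tested. In Ly6c2- C1qa+ barcodes DEP 13 was lowest (55.2), PBS 2 highest (92.1), and DEP 11 and PBS 3 were alike (75.7 and 74.6), with a log2 fold change of -0.33 (SE 0.19). The difference of both effects was -0.78 (SE 0.17, adjusted p = 0.0792 in edgeR), which missed the threshold in a comparison that called 12 of 6731 genes (0.178%, of which 0.119% higher and 0.0594% lower). The adjusted p was 0.00873 with no filter on low genes and 0.0276 with at least 2000 UMIs per barcode, while with strata set on thinned counts the difference was 0.09, and over 16 alternatives the adjusted p ran from 0.00873 to 0.9997. The corresponding difference for Cd14 was 0.22 (SE 0.10, adjusted p = 0.817). No gene of the pathway list was called in any DEP comparison.

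**Figure D4:**
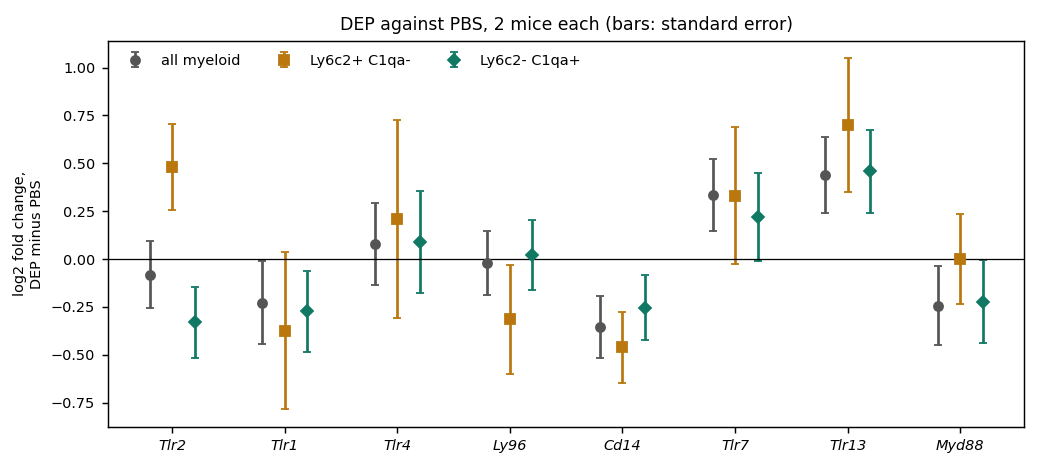
Log2 fold change of DEP against PBS mice (vertical axis, 2 mice each, bars are standard errors) for the 8 members tested (horizontal axis), over all myeloid barcodes and within 2 strata. Tlr2 lies at 0.48 in Ly6c2+ C1qa- and at -0.33 in Ly6c2- C1qa+, Tlr13 and Tlr7 lie above 0 and Cd14 below 0 in each set, and none passed the adjusted threshold.

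The genes most like each member were sought over the 16 sums of mouse and stratum, by Pearson's r of log2(CPM + 1), as a description in which the sums share mice and depth. Tlr2 was followed most closely by Cd300lb (r = 0.936), an activating myeloid receptor, then by Naaa (0.869) and AB124611 (0.860). Cd14 was followed by Jun (0.818), Hspa1a (0.816) and Ier2 (0.810). Jun and Ier2 are immediate early genes, and Hspa1a encodes a heat shock protein. Hspa1a was at 1227, 1266, 2563 and 2012 CPM over all myeloid barcodes. Jun was at 1045, 778, 1537 and 1248 CPM. Neither passed the adjusted test between DEP and PBS mice (Hspa1a -0.87, SE 0.16, adjusted p = 0.721, and Jun -0.61, SE 0.17, adjusted p = 0.9998, edgeR). Since both were chosen for following Cd14 in sums of the same mice, their order of the mice is no independent support for that of Cd14. Myd88 was followed by Card19 (0.884), Tlr1 by Mt1 (0.892), Ly96 by Naa20 (0.880), Tlr7 by Mff (0.898), Tlr4 by Tpra1 (0.873) and Tlr13 by Rnaset2a (0.806). For Tlr6 and Tlr9 the best r of 0.842 and 0.765 rested on 171 and 31 UMIs.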

How the data were processed

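Single-cell 3' libraries (10x Genomics, v2 chemistry) of 2 DEP and 2 PBS mice were deposited as 1 table of UMI counts, whole numbers per gene and barcode with no normalization by the authors. The submitters' processing notes name R 3.5.1, mm10, STAR 2.6.1a and Cell Ranger, the last without a version. The mouse of each of 6954 barcodes was read from its suffix, and 36 barcode sequences occurred in more than 1 mouse. Total counts were 7585591 (DEP 11), 4489342 (DEP 13), 10293703 (PBS 2) and 9893180 UMIs (PBS 3), so DEP 13 gives the least precise values. Ensembl identifiers of 28339 of 28692 genes were matched to GENCODE M21, which gives the mm10 positions.

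Barcodes with at least 1000 UMIs were kept, less those with at least 3 T, 3 B or 4 plasma cell markers (numbers set after marker counts were seen). The C1qa and Ly6c2 cuts are Otsu thresholds of log2(UMIs per 10000 + 1). Likely doublets (56 barcodes, 1.23%, marked by scrublet in scanpy 1.11.5) were kept, and left out as an alternative. UMIs were summed per mouse and stratum (16 sums) and tested with edgeR 4.0.16 (TMM, quasi-likelihood F test, R 4.3.3), with mouse as a block between strata, for genes over 1 CPM in at least 2 sums and in at least 5% of barcodes. The interaction of DEP and stratum kept the block. The other DEP comparisons had none, since DEP and PBS mice share no replicate number. Calls are at an adjusted p under 5%. Levels are CPM of summed counts. Members, strata, gene lists and the rule for named genes (all 10 members, called pathway genes by role, the 3 most alike genes per member) were chosen with earlier results of these data known. The scripts were tested on simulated data. DESeq2 1.42.0 and limma 3.58.1 were alternatives.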

Additional observations from a re-analysis of the deposited data

Results flagged for a closer look

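Barcodes left out of the comparisons also held UMIs of the members. In barcodes under 500 UMIs, Tlr2 was at 161 CPM over the 4 mice together (76 UMIs), above the level in the myeloid barcodes of the same mouse in 4 of 4 mice (214, 161, 156 and 96.6 against 102, 78.6, 107 and 84.8 in DEP 11, DEP 13, PBS 2 and PBS 3). In the 82 barcodes with B cell markers, Myd88 was at 66.9 CPM (38 UMIs) and Tlr4 at 19.4 (11 UMIs), each above the myeloid barcodes of the same mouse in 4 of 4 mice. Those barcodes also held C1qa at 3934 CPM. Single mice held 10 to 35 of the Tlr2 UMIs, 5 to 14 of the Myd88 UMIs and 1 to 5 of the Tlr4 UMIs. Counting error is large at these numbers, most of all for Tlr4, and no difference was tested.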

How the results depend on the processing

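Across the 17 alternatives run for the strata (other scalings, tools, filters, UMI minimums, cuts, no block and leaving out each mouse), Tlr2 stayed between -0.90 and -0.61 and Tlr1 between 0.93 and 1.12 on the log2 scale, and both were called in 17. Myd88 stayed between -0.60 and -0.36 and was called in 16. Without the pairing of strata by mouse (no replicate block), 1820 genes were called in place of 2586, and no member's call changed. With strata set on thinned counts 1370 were called. Ly96 passed the threshold with the filter on detected genes and mitochondrial share (0.31) and with lymphoid barcodes kept (0.36), as did Tlr13 with the latter (0.39). Tlr13 ran from 0.098 (fixed cuts) to 0.60 (thinned strata) and Tlr7 from -0.61 (thinned strata) to -0.18 (lymphoid barcodes kept). Cd14, Tlr4 and Ly96 changed sign. Cd14 was at 0.017 with lymphoid barcodes kept, and on thinned strata Tlr4 was at -0.015 and Ly96 at -0.033. Leaving out a mouse gave -0.043 to 0.42 for Tlr4 and -0.15 to 0.011 for Cd14. The causes were not tested.

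For DEP against PBS over all myeloid barcodes (0 genes called), DESeq2 called 4 and no gene filter 76, and leaving out a mouse gave 8 (without PBS 3) to 28 (without DEP 11), while Tlr2 ran from -0.25 to 0.059, Tlr4 from 0.020 to 0.15 and Tlr13 from 0.28 to 0.59. In Ly6c2+ C1qa- (0 called), DESeq2 called 1 and no gene filter 22, and leaving out a mouse gave 3 (without DEP 11) to 39 (without PBS 2). On thinned strata Tlr2 there was at -0.23 and Tlr7 at -0.041. In that stratum Cd14 ran from -1.02 (thinned strata) to -0.28 (without PBS 2), Tlr13 from 0.18 (thinned strata) to 0.88 (without PBS 2), Tlr1 from -1.33 (thinned strata) to -0.018 (fixed cuts) and Ly96 from -0.42 (without PBS 2) to -0.019 (thinned strata). In Ly6c2- C1qa+ (1 called), 0 were called with DESeq2 size factors, limma voom, filterByExpr, a minimum of 500 UMIs, doublets left out, fixed cuts and thinned strata. DESeq2 called 4, no gene filter 68 and a minimum of 2000 UMIs 2, and leaving out a mouse gave 14 (without DEP 13) to 31 (without PBS 3). There Tlr2 ran from -0.55 to -0.15, Cd14 and Tlr1 from -0.41 to -0.11 and -0.12, and Tlr13 from 0.28 to 0.62. For the interaction (12 called), DESeq2 and thinned strata called 2 each, the filter on detected genes 3, lymphoid barcodes kept 4, a minimum of 2000 UMIs 24 and no gene filter 53. Leaving out a mouse gave 0 (without PBS 3) to 41 (without DEP 13). Tlr2 was at 0.090 on thinned strata, and Cd14 ran from 0.11 to 0.79. A lone mouse left in a group is assumed to vary like the others. None of the member fold changes between DEP and PBS given here passed the threshold in any of these alternatives, apart from the interaction of Tlr2.

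Thinning each barcode to 1000 UMIs moved the shares with a UMI, in Ly6c2+ C1qa- and Ly6c2- C1qa+ in turn, to 12.7% and 7.42% for Tlr2, 5.99% and 4.2% for Myd88 and 1.67% and 2.77% for Tlr1. Depth limits Tlr6 and Tlr9 most, with 171 and 31 UMIs.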
